A study of Mus musculus with 16 samples.

Results

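The genes described here encode proteins of synaptic vesicles and of the machinery that fuses them with the plasma membrane. They were chosen by symbol from the deposited count table: the synaptotagmins (Syt), syntaxins (Stx), syntaxin binding proteins (Stxbp), VAMPs, synapsins (Syn1 to Syn3), SV2 proteins, complexins (Cplx), RIM proteins (Rims), Munc13 proteins (Unc13), and Snap23, Snap25, Snap29, Snap47 and Snap91. The rule found 70 of 24539 genes, of which 67 had at least 1 count and 57 had enough counts to be tested. A member that passes this filter through a group in which it is high is favoured by it, so the 57 are not all of the members, and the other 13 are described by their counts. Snap91, an endocytic clathrin assembly protein, and Stxbp3-ps, a pseudogene, were found by their symbols although neither is a SNARE.

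RNA came from cells that carried a GFP reporter of GAD67, a GABA-synthesising enzyme, and that were cut by laser from the cortical plate of fixed mouse embryos of day 14.5. All embryos were GAD67-GFP+/- of the CD1 strain, each was recorded as male, and each came from a separate litter. The 4 groups of 4 embryos were cypermethrin non-stressed, vehicle stressed, cypermethrin stressed and vehicle non-stressed. Exposed dams were given 10 mg/kg alpha-cypermethrin, a pyrethroid insecticide that acts on sodium channels, by gavage on each of gestational days 11 to 14, and vehicle dams were given corn oil. Restraint, under bright light, lasted 45 min a session, with 3 sessions on day 12 and on day 13. A last round on day 14 ended 15 min before the dams were killed, and every dam had its final gavage 90 min before. Each library pooled about 1000 cells of 1 embryo, about 100 from each of 10 sections. Replicate numbers only name the libraries.

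Total counts per library ran from 2291283 to 4324129. The labels call the cells neural progenitors. In CPM (counts scaled to a common library size), Gad1, which encodes GAD67, averaged 70.0 and the neuroblast gene Dcx 3916 CPM, and markers of several cell types were present: over the 16 libraries 10 interneuron markers summed to 1328 to 2232 CPM, 8 glutamatergic neuron markers to 4428 to 7045, 8 pericyte and meningeal markers to 1330 to 3936, and 8 radial glia and progenitor markers to 602 to 893 CPM. Synaptic genes are used by glutamatergic and GABAergic neurons alike, so the levels below belong to the captured material as a whole, in which fewer cells of a type and less RNA per cell cannot be told apart. Xist, the RNA of the inactive X chromosome, had 4528 CPM in replicate 1 of vehicle stressed dams and at most 8.14 CPM in the other 15 libraries, which goes against the male label of that embryo. It is called the library labelled vehicle stressed 1 below, and values of members that rest on it are also given when it is left out.

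A synaptic vesicle carries a VAMP, the vesicle SNARE, and the plasma membrane carries a syntaxin and a SNAP protein. The 3 proteins zip together into a bundle that pulls the membranes into fusion, while a synaptotagmin senses calcium, complexin clamps and primes the bundle, Munc13 proteins help to assemble it, and RIM proteins hold vesicles at the release site. Migrating neurons have few synapses, and the same proteins, with relatives on endosomes and the Golgi, deliver membrane to their growing processes.

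The release machinery was transcribed in every library. Snap25, the neuronal plasma membrane SNAP (chromosome 2, from 136713453 to 136782428 in mm10), had 448 CPM in the lowest library, a median of 521 and 842 CPM in the highest (mean 551 ± 99.4, SD, n = 16). Cplx2, a complexin (chromosome 13, from 54371349 to 54383917), had 287 ± 87.5 CPM. Syt1, the fast calcium sensor, had 265 ± 50.2 and Syn1, a synapsin that tethers vesicles to each other, 226 ± 40.7 CPM (SD, n = 16 each). The 70 members together had a summed level of 5101 ± 384 CPM, and took between 0.451% and 0.572% of the counts of a library.

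Levels of different genes were compared per kilobase of annotated exon, since longer transcripts give more reads. On this scale Snap25 was the highest with 81.1 ± 14.6 CPM per kb, followed by Syn1 with 68.6 ± 12.4, Stx12, a syntaxin of recycling endosomes, with 62.9 ± 18.8, and Cplx2 with 58.2 ± 17.8 CPM per kb (SD, n = 16 each). The neighbours in this order differ by less than the larger of their SDs. With the longest transcript in place of all exons Vamp2, the main vesicle SNARE of the brain, took the second place with 73.7 CPM per kb, against 42.7 per kb of all exons. The order below Snap25 therefore depends on which transcripts are made, which gene counts do not show.

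**Figure D1:**
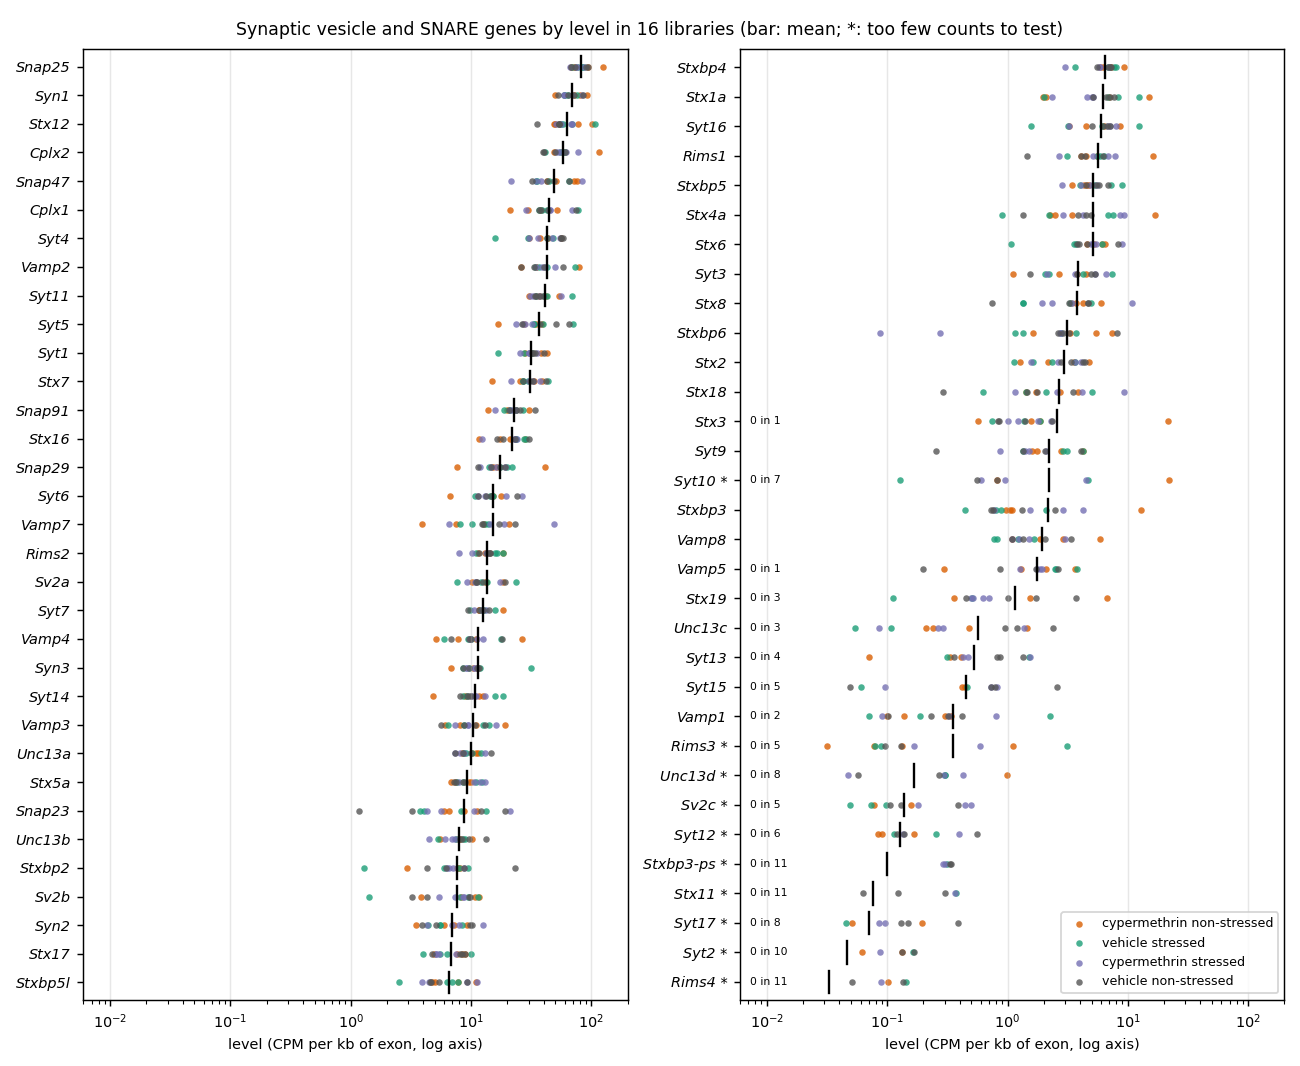
Level of 65 of the 67 members with a count, in CPM per kb of exon on a log axis, from the highest mean (top left) to the lowest (bottom right). Each point is 1 of the 16 libraries, coloured by group, the black bar is the mean, and libraries without a count are given as a number at the left. Snap25 leads with a mean of 81.1 CPM per kb, and the spread between libraries widens towards the lower members.

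Between some close relatives the same gene was the higher in every library. Vamp2 had 42.7 ± 15.3 CPM per kb and Vamp1, a close relative used by hindbrain and spinal neurons, had 0.355 ± 0.543, and Vamp2 was the higher in 16 of 16 libraries. Snap25 was higher than Snap23, a form found in most tissues, in 16 of 16 libraries, with 81.1 ± 14.6 and 8.68 ± 5.63 CPM per kb, while Snap47 stood between them with 49.1 ± 17.9. Syt1 had 31.7 ± 6.02 CPM per kb, while Syt2, the calcium sensor of the same hindbrain and spinal neurons, had 21 counts in all and none in 10 libraries. Rims2 was higher than Rims1 in 16 of 16 libraries (13.6 ± 2.84 and 5.60 ± 3.25 CPM per kb).

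In other pairs the order varied between libraries or with the transcript length. Cplx2 and Cplx1 had 58.2 ± 17.8 and 44.7 ± 16.1 CPM per kb, with Cplx2 higher in 12 of 16, while Cplx3 and Cplx4, complexins best known from retinal ribbon synapses, had no count in any library. Sv2a and Sv2b, vesicle membrane proteins, had 13.4 ± 4.20 and 7.60 ± 3.08 CPM per kb, with Sv2a higher in 15 of 16 libraries, but in 8 of 16 when the longest transcript sets the length. Unc13a and Unc13b, the Munc13 proteins that prime vesicles, had 9.92 ± 2.05 and 7.89 ± 2.13 CPM per kb, with Unc13a higher in 15 of 16 libraries, or in 5 of 16 with the longest transcript. The pairs were picked after the levels had been seen, and these counts of libraries are a description.

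**Figure D2:**
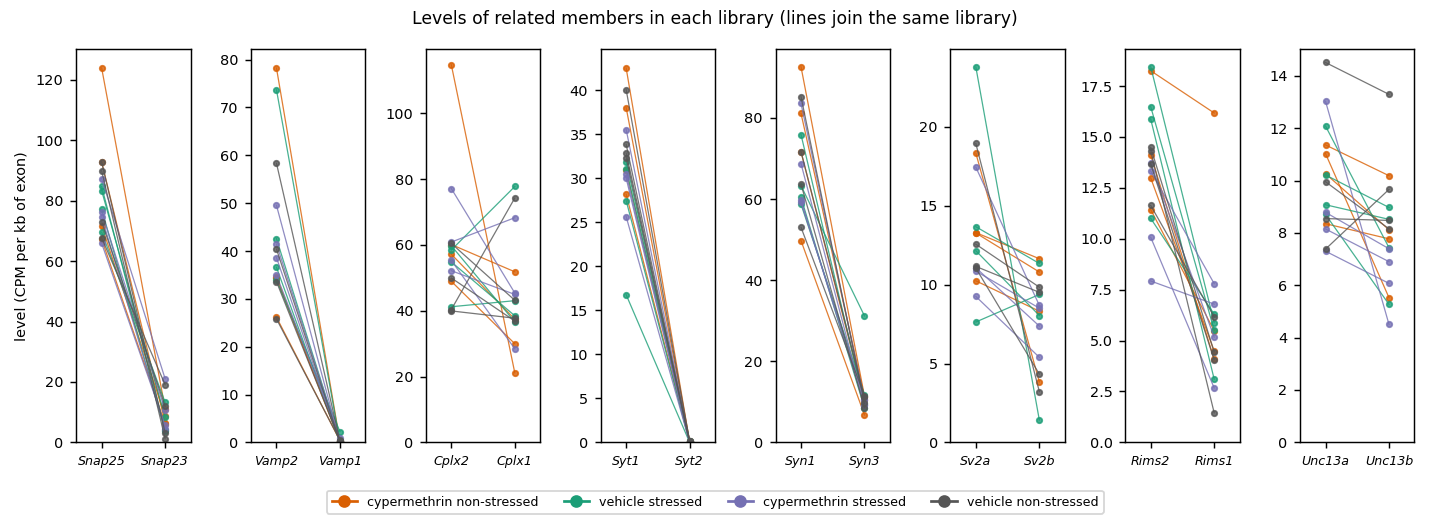
Levels of related members in CPM per kb of exon, each panel on its own axis from 0. Points are the 16 libraries, coloured by group, and a line joins both values of 1 library. The lines of Snap25 and Snap23, Vamp2 and Vamp1, Syt1 and Syt2, and Rims2 and Rims1 all slope downwards, while those of Cplx2 and Cplx1 cross.

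Among the synapsins, Syn1 had 68.6 ± 12.4, Syn3 11.3 ± 5.46 and Syn2 6.90 ± 2.60 CPM per kb of exon (SD, n = 16), and Syn1 exceeded Syn3 in 16 of 16 libraries. With the longest transcript Syn1 and Syn3 had 69.4 and 29.1 CPM per kb, and Syn1 was higher in 15 of 16. Syn3 averaged 139 ± 67.1 CPM over all libraries and 123 ± 17.1 CPM over 15 without the library labelled vehicle stressed 1, which had 383 CPM against 83.0 to 144 CPM in the others. Timp3, an inhibitor of matrix metalloproteinases, lies on the opposite strand inside Syn3, and 1733 bases of its exons overlap exons of Syn3. It too was highest in that library, with 233 CPM against 48.1 to 156 CPM in the other 15. Reads of the genes cannot be told apart unless strand was used in counting, which the sources used here do not state, and the part of Timp3 in the Syn3 value was not tested.

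The promoters of 52 members were found in RefSeq (GRCm38.p6), 67 windows of 300 bases that run from 250 before to 50 after a transcript start. Their median GC content was 62.3%, against 52.7% over all 32851 windows, and GGGCGG, the core of the SP1 site, was found on either strand in 65.7% of them, against 35.7% of all windows. The silencer REST, which keeps synaptic genes off outside neurons, binds a long element whose left part is close to TTCAGCACC, and these letters were found on either strand in 0.371% of all windows and in 2 member windows, those of Syn1 and Unc13a. The octamer TGACGTCA, a cyclic AMP response element, was found in 1.79% of all windows and in 2 member windows, those of Syn1 and Stxbp3. The pair with the rare REST letters is shown because Syn1 is the highest synapsin here and Unc13a the highest Munc13 member per kb of exon. Capitals mark TTCAGCACC (or its reverse complement), TGACGTCA, and GGACAG (or its reverse complement), letters close to the right part of the REST element that were found in 22.2% of all windows and in 16 of the 67. A match is a description of letters and no evidence of binding.
Syn1, chrX:20920869-20921168, minus strand: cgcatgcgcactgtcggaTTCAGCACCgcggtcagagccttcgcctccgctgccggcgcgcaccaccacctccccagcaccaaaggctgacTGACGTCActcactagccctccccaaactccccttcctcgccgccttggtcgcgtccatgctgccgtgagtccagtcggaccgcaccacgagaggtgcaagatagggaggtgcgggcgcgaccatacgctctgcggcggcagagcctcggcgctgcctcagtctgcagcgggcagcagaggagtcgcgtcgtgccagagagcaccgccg
Unc13a, chr8:71671708-71672007, minus strand: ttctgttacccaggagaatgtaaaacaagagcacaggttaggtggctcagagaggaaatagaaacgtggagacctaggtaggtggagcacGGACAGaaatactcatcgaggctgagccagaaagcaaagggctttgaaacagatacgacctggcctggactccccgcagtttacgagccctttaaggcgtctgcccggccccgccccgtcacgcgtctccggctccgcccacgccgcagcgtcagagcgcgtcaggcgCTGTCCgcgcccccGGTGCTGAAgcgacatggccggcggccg

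Of the synaptotagmins, Syt4 and Syt11, members whose calcium binding is weak or absent, had 42.8 ± 12.2 and 40.8 ± 10.5 CPM per kb of exon, and Syt5 and Syt1, which bind calcium, had 36.6 ± 14.6 and 31.7 ± 6.02 (SD, n = 16). With the longest transcript Syt1 was the highest of these with 54.9 CPM per kb, against 42.8 for Syt4. Syt6, Syt7, a slow high-affinity sensor, and Syt14 had 15.2 ± 4.94, 12.6 ± 2.22 and 10.7 ± 3.15 CPM per kb of exon. Syt8 had no count in any library, and Syt2, Syt10, Syt12 and Syt17 had too few to be tested. Syt10 was unevenly spread, with 153 of its 242 counts in cypermethrin non-stressed replicate 3 and none in 7 libraries.

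Stx12, Stx7 and Stx16, syntaxins of internal membranes, stood above Stx1a, Stx2, Stx3 and Stx4a of the plasma membrane. Per kb of exon Stx12 had 62.9 ± 18.8, Stx7 of late endosomes 30.9 ± 7.40, Stx16 and Stx6 of the trans-Golgi network 22.0 ± 5.55 and 5.11 ± 1.88, and Stx5a of the Golgi 9.31 ± 1.98 CPM (SD, n = 16). On the plasma membrane Stx1a, a neuronal form, had 6.19 ± 3.62, and Stx4a, Stx2 and Stx3, which serve secretion in many cell types, had means of 5.13, 2.95 and 2.58 CPM per kb. Stx17, Stx8 and Stx18, also of internal membranes, had means of 6.80, 3.75 and 2.70 CPM per kb. Stx6, Stx8 and Stx18 were thus below Stx1a, and not all internal syntaxins stood above the plasma membrane forms. Stx11, a syntaxin of immune cells, had 20 counts in all. Exons of 12 of the 70 members, Stx4a and Syn3 among them, share sequence with another gene of the table, so those counts are uncertain.

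Above 30 CPM members varied between libraries about as much as other genes of their level, and below it their median variation was larger. In the range from 100 to 300 CPM the median coefficient of variation over the 16 libraries was 26.5% for 16 members and 25.2% for all 1730 genes, and from 30 to 100 CPM it was 37.7% for 23 members and 38.6% for 3853 genes. From 10 to 30 CPM the medians were 72.8% for 9 members and 57.5% for 3640 genes, and from 1 to 10 CPM 112% for 8 members and 95.7% for 3411 genes. Among the 57 tested members, 12 (21.1%) had their highest value in cypermethrin non-stressed replicate 4, where 12.4% of all tested genes did. Another 12 (21.1%) had their lowest value in the library labelled vehicle stressed 1, where 20.8% of all tested genes did. That library had 11.9 CPM of Sv2b against at least 27.0 CPM in the other 15, 11.4 of Stx6 against at least 38.1 and 61.8 of Syt4 against at least 116 CPM.

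**Figure D3:**
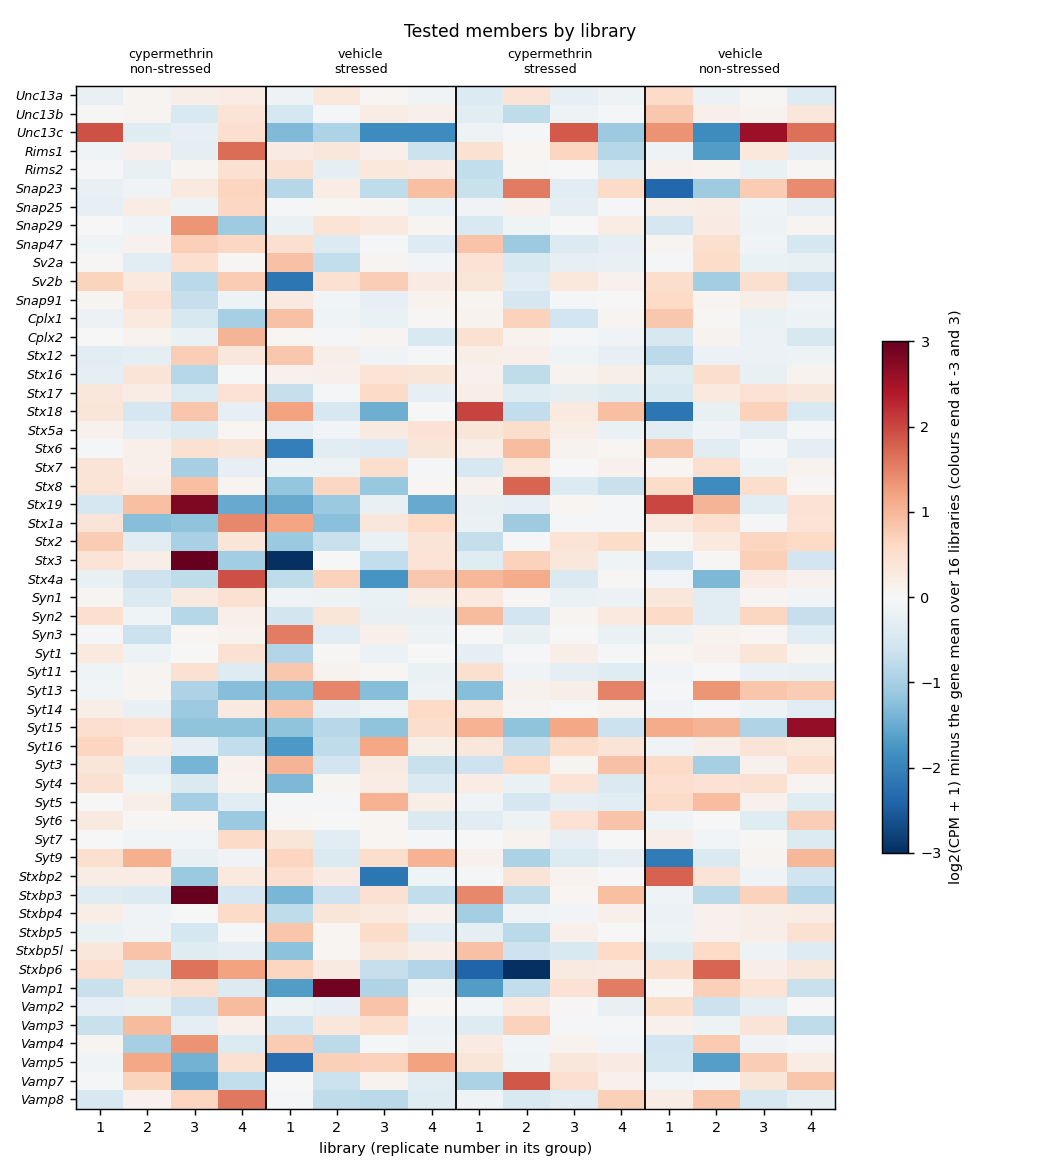
Levels of 55 of the 57 tested members (rows, ordered by family) in the 16 libraries (columns, by group and replicate), as log2(CPM + 1) minus the mean of the gene over all libraries, with red above and blue below the mean and colours ending at -3 and 3. Deep red cells in single libraries include Stx3 and Stxbp3 in cypermethrin non-stressed replicate 3 and Vamp1 in vehicle stressed replicate 2.

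The effect of the insecticide by itself was read from cypermethrin non-stressed against vehicle non-stressed dams. No member changed past the threshold by edgeR's quasi-likelihood test, at a Benjamini-Hochberg adjusted p under 0.05 over 13224 genes: 0 of 57, where 0% of all genes were called. At an unadjusted p under 0.05 stood 3 members (5.26%), 2 fitted higher and 1 lower, against 3.71% of all genes, 2.38% higher and 1.33% lower. Without vehicle non-stressed replicate 1 it was 0 of 60 members, beside 373 of 13600 genes. Snap25 differed by 0.14 ± 0.18, Vamp2 by 0.13 ± 0.31 and Syt1 by 0.00 ± 0.20 (log2, SE, n = 4 per group). Larger values were fitted for Rims1 (0.90 ± 0.48, unadjusted p = 0.0734), Cplx2 (0.56 ± 0.23, 0.0224) and Cplx1 (-0.45 ± 0.33, 0.190), each at an adjusted p of 0.999. Rims1 had 119 CPM in cypermethrin non-stressed replicate 4, against 30.0 to 40.4 in the rest of that group. Cplx1 had 163 CPM in vehicle non-stressed replicate 1, against 80.7 to 94.5 in the rest of that group. The fitted difference was positive for 33 of the 57 and negative for 24 (median 0.04, beside 0.03 over all genes). DESeq2 also called 0 genes, with 671 at an unadjusted p under 0.05 beside 491 by edgeR.

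The groups of 1 member (1.75% of 57) did not overlap, where those of 2.52% of all genes did not, 1.19% higher and 1.32% lower. Stx1a differed by -0.04 ± 0.65. The sample descriptions hold a library code with 2 values, the first on 7 libraries and the second on 9, whose meaning is not stated. The first holds 1 library of cypermethrin without stress.

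Cplx2 had 282, 296, 241 and 566 CPM with cypermethrin alone, against 199, 298, 246 and 197 CPM with vehicle alone. Replicate 4 of the exposed group set most of the difference of 0.56 ± 0.23 (unadjusted p = 0.0224, adjusted p = 0.999), which was 0.22 without it. That library also had the highest Snap25, Vamp2 and Rims1 of all 16, and the highest Gad2, which encodes the other GABA-synthesising enzyme (456 CPM, against a mean of 271 ± 82.0, SD, n = 16). The part of its cell content in these values was not tested. Within the first and second library code Cplx2 differed by 0.18 and 0.73.

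Stx3, a syntaxin of epithelia and of ribbon synapses (chromosome 19, from 11775118 to 11819403), had 10.6, 8.94, 123 and 3.27 CPM with cypermethrin alone and 4.71, 8.01, 13.4 and 4.89 CPM with vehicle alone. The log2 difference of 2.23 ± 0.92 (unadjusted p = 0.0217, adjusted p = 0.999) rested on replicate 3 of the exposed group and was -0.01 without it. The same library had 68.8 CPM of Stxbp3, a syntaxin chaperone of many tissues, against at most 22.8 CPM in the other 15. It also had the highest summed level of 6 macrophage and microglia markers (437 CPM, against at most 177 in the other 15), of 5 endothelial markers (388 CPM, against at most 297) and of the 8 pericyte and meningeal markers (3936 CPM, against at most 3557). The part of these cells in the Stx3 and Stxbp3 values was not tested.

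The effect of restraint by itself was read from vehicle stressed against vehicle non-stressed dams. No member changed past the threshold (0 of 57 by edgeR, where 0% of all genes were called). At an unadjusted p under 0.05 stood 4 members (7.02%), 1 fitted higher and 3 lower, against 5.08% of all genes, 3.2% higher and 1.88% lower. Without the library labelled vehicle stressed 1 it was 2 of 60 members, beside 472 of 13609 genes. Snap25 differed by -0.04 ± 0.18, Vamp2 by 0.24 ± 0.31 and Stx1a by 0.15 ± 0.65 (log2, SE, n = 4 per group). The fitted difference was positive for 26 of the 57 and negative for 31 (median -0.03, beside 0.01 over all genes). DESeq2 also called 0, with 880 genes at an unadjusted p under 0.05 beside 672 by edgeR. With vehicle, 8 radial glia and progenitor markers summed to 806 to 893 CPM with stress and 602 to 757 CPM without it. Of the marker lists, only this one did not overlap between these groups. With cypermethrin the same markers summed to 683 to 795 CPM with stress and 722 to 860 CPM without it. The part of radial glia and progenitors in the differences below was not tested.

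Unc13c, a Munc13 protein best known from cerebellar granule cells (chromosome 9, from 73479422 to 73968966), was close to the floor with stress. It had 1, 3, 0 and 0 counts in replicates 1 to 4 of vehicle stressed dams, or 0.476, 0.940, 0 and 0 CPM, against 25, 0, 83 and 41 counts, or 8.42, 0, 20.9 and 10.6 CPM, in vehicle non-stressed dams. The groups overlapped through replicate 2 of the non-stressed group, which had no count. Unc13c passed the filter mainly through non-stressed libraries, which favours a lower value with stress. The log2 difference was -4.73 ± 1.46 (unadjusted p = 0.00320, adjusted p = 0.965), a value that depends on the small count added to every library in fitting. It was -2.48 and -8.84 within the library codes, and -4.88 when the library labelled vehicle stressed 1 was left out.

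Syt4 had 61.8, 167, 186 and 116 CPM with stress, against 227, 216, 219 and 167 CPM with vehicle alone. The log2 difference was -0.64 ± 0.28 (unadjusted p = 0.0287, adjusted p = 0.965). It was -0.41 (unadjusted p = 0.119) without the library labelled vehicle stressed 1. Within the first and second library code it was -0.95 and -0.36. Stx19, a syntaxin without a transmembrane segment whose gene lies inside Arl13b on the opposite strand, had 0, 1, 4 and 0 counts with stress and 31, 18, 5 and 11 counts without, with a fitted difference of -3.39 ± 1.44 (unadjusted p = 0.0262, adjusted p = 0.965) and of -5.19 and -1.57 within the codes. Leaving out the library labelled vehicle stressed 1 gave -3.05 (unadjusted p = 0.0590). Stx19 passed the filter only through non-stressed libraries, which favours a lower value with stress.

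Stx12 and Syt1 were the members whose groups did not overlap under stress, 2 of 57 (3.51%), where 2.9% of all genes did not, 1.23% higher and 1.66% lower. Stx12 (chromosome 4, from 132853501 to 132884509) had 339, 219, 179 and 184 CPM with stress, all above the 112, 172, 170 and 173 CPM of vehicle alone, and differed by 0.55 ± 0.25 (unadjusted p = 0.0365, adjusted p = 0.965). Syt1 had 140, 265, 229 and 259 CPM with stress, all below the 270, 282, 334 and 274 CPM of vehicle alone, and differed by -0.38 ± 0.20 (unadjusted p = 0.0754, adjusted p = 0.965). The library labelled vehicle stressed 1 was the highest for Stx12 and the lowest for Syt1. Without it the differences were 0.31 for Stx12 (unadjusted p = 0.219) and -0.21 for Syt1 (unadjusted p = 0.284). Both were named after their values had been seen.

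The combination was read from cypermethrin stressed against vehicle non-stressed dams. No member changed past the threshold (0 of 57 by edgeR, where 0% of all genes were called). At an unadjusted p under 0.05 stood 3 members (5.26%), all fitted lower, against 1.49% of all genes, 0.786% higher and 0.703% lower. This count fell when certain single libraries were left out. Without vehicle non-stressed replicate 1 it was 0 of 60 members, beside 145 of 13600 genes. Without cypermethrin stressed replicate 2 it was 1 of 59 members, beside 161 of 13550 genes. It was 2 of 59 without cypermethrin stressed replicate 1, and likewise without vehicle non-stressed replicate 2. Snap25 differed by -0.09 ± 0.18, Syt1 by -0.19 ± 0.20 and Vamp2 by 0.06 ± 0.31 (log2, SE, n = 4 per group). Positive differences were fitted for 26 of the 57 and negative ones for 31 (median -0.04, beside 0.00 over all genes). DESeq2 also called 0, with 289 genes at an unadjusted p under 0.05 beside 197 by edgeR. The groups did not overlap for Unc13b, lower, and Syt14, higher, 2 of 57 (3.51%), where 2.62% of all genes did not overlap, 1.27% higher and 1.35% lower.

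Unc13b (chromosome 4, from 43058953 to 43264871) had 138, 102, 157 and 168 CPM with both exposures, against 302, 193, 185 and 220 CPM with vehicle alone. Every exposed library lay below every unexposed library, and replicate 1 of the vehicle group was the highest of all 16. The log2 difference was -0.67 ± 0.24 (unadjusted p = 0.00891, adjusted p = 1), and -1.04 and -0.32 within the library codes. Without replicate 1 of the vehicle group the Unc13b difference was -0.49. The neighbour of Unc13b in function, Unc13a, had 118 ± 32.2 CPM with both exposures and 127 ± 39.4 CPM with vehicle alone (SD, n = 4).

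Syt5, a calcium-binding synaptotagmin, had 76.0, 56.1, 66.5 and 64.5 CPM with both exposures and 122, 156, 88.8 and 63.1 CPM with vehicle alone. Its difference was -0.71 ± 0.33 (unadjusted p = 0.0400, adjusted p = 1), and -1.08 and -0.21 within the codes. Without vehicle non-stressed replicate 2 the Syt5 difference was -0.47. The 3 comparisons with vehicle non-stressed dams share those 4 libraries.

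**Figure D4:**
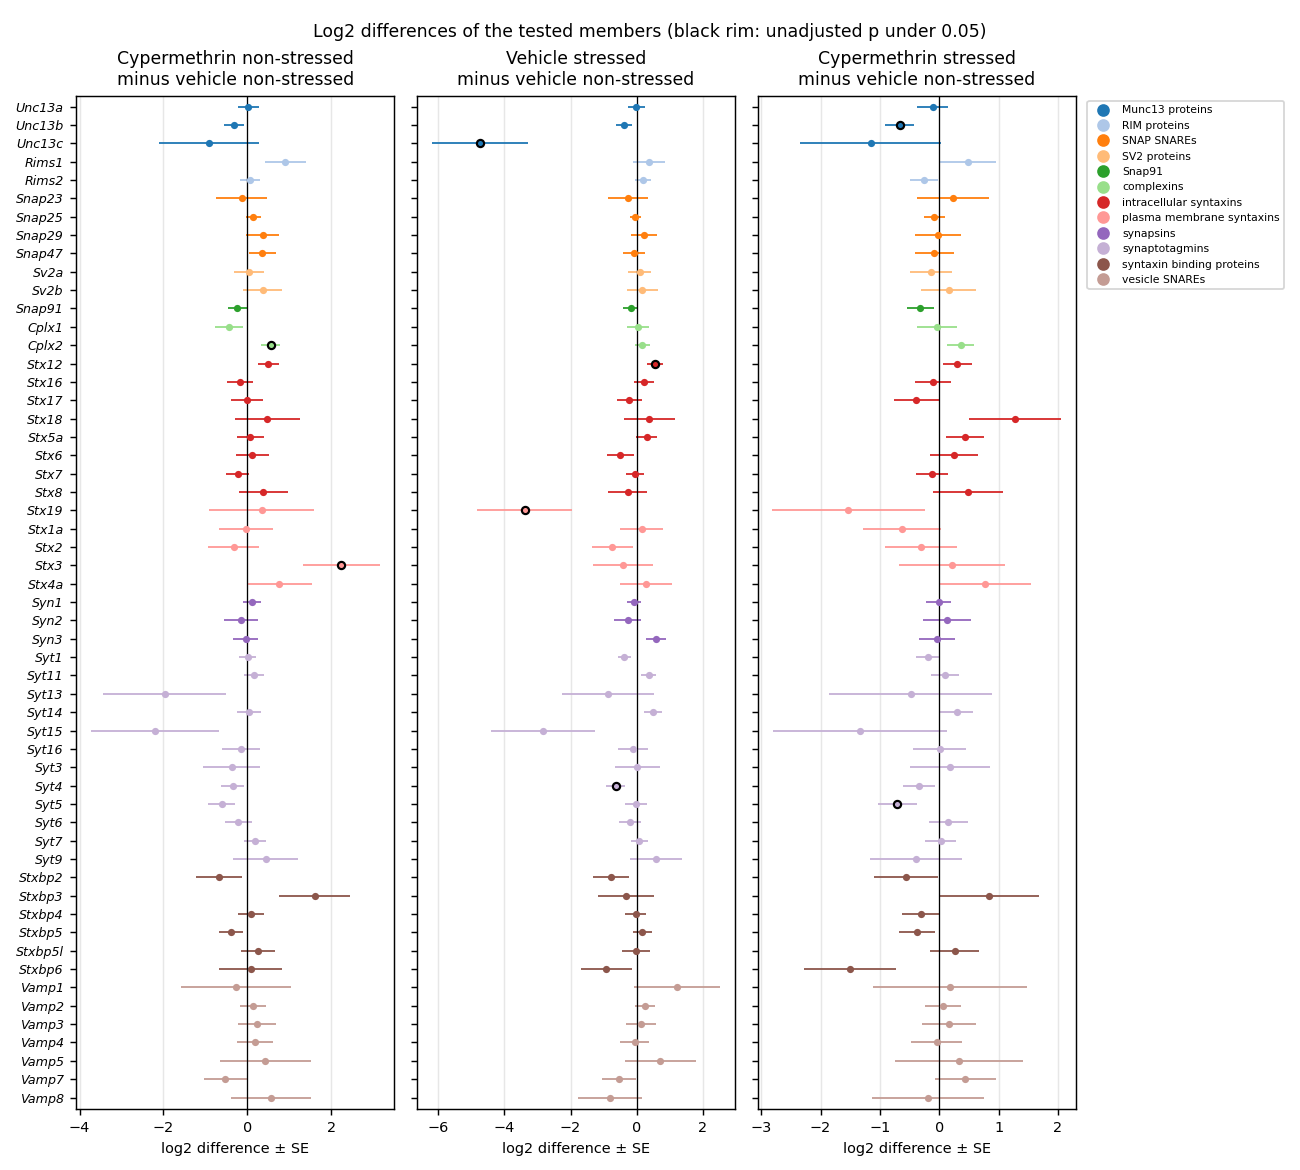
Log2 differences of 55 of the 57 tested members from vehicle non-stressed dams, with their standard errors, for cypermethrin non-stressed, vehicle stressed and cypermethrin stressed dams (n = 4 per group), coloured by family, each panel on its own axis. A black rim marks an unadjusted p under 0.05, which 2, 4 and 2 of the members drawn have, and none has an adjusted p under 0.05. Snap25 and Syn1 sit near 0 with short bars, and the widest bars belong to members at a few CPM.

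Each exposure was also averaged over the other, 8 libraries against 8. For cypermethrin 0 of 57 members were called by edgeR, where 0% of all genes were, and 6 members (10.5%) had an unadjusted p under 0.05, 3 fitted higher and 3 lower, against 4.59% of all genes, 2.36% higher and 2.23% lower. No member's groups were free of overlap, where those of 0.0302% of all genes were, 0.00756% higher and 0.0227% lower. DESeq2 called 1 gene here, which was no member, and had 764 at an unadjusted p under 0.05 beside 607 by edgeR.

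Syt5 differed by -0.65 ± 0.23 in this average (unadjusted p = 0.00936, adjusted p = 0.981), with 39.6 to 92.2 CPM in the 8 libraries with cypermethrin and 63.1 to 168 CPM in the 8 with vehicle. Within these codes it differed by -0.51 and -0.60. Cplx2 differed by 0.38 ± 0.16 (unadjusted p = 0.0281, adjusted p = 0.981), or by 0.21 without cypermethrin non-stressed replicate 4, and by 0.23 and 0.41 within the codes. Stxbp3 and Stx3 were also under this p, fitted higher and both highest in cypermethrin non-stressed replicate 3, as was Stxbp5, known as tomosyn, a protein that holds SNAREs back from forming bundles, fitted lower with -0.47 ± 0.21. Leaving out the library labelled vehicle stressed 1, which had the highest Stxbp5 (147 CPM), gave -0.36 for Stxbp5 (unadjusted p = 0.0866), which then leaves this count. Unc13b then enters it with -0.37 (unadjusted p = 0.0304), and the count was 6 of 60 members, beside 648 of 13609 genes. Other single libraries lowered the count. It was 2 of 60 members without vehicle non-stressed replicate 4, beside 610 of 13544 genes. Without cypermethrin non-stressed replicate 3 it was 3 of 59, beside 596 of 13580 genes.

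For stress averaged over cypermethrin 0 of 57 members were called by edgeR, where 0% of all genes were, and DESeq2 called 0 genes as well, with 817 at an unadjusted p under 0.05 beside 679 by edgeR. At this p stood 4 members (7.02%), all fitted lower, against 5.13% of all genes, 2.44% higher and 2.69% lower. They were Stx19 with -2.63 ± 0.97 (unadjusted p = 0.0112), Unc13c with -2.49 ± 0.93 (0.0122), Stxbp6 with -1.25 ± 0.54 (0.0293) and Unc13b with -0.37 ± 0.17 (0.0378), each at an adjusted p of 0.960. Leaving out the library labelled vehicle stressed 1 gave -2.46, -2.56, -1.42 and -0.30 for these 4. Unc13b (unadjusted p = 0.0773) then leaves this count, which was 3 of 60 members, beside 685 of 13609 genes. Stx19 had at most 9 counts in any stressed library and passed the filter only through non-stressed libraries. Unc13c passed it mainly through non-stressed libraries. The filter therefore favours lower values with stress for Stx19 and Unc13c, and the count holds them. Stxbp6, or amisyn, another brake on SNARE assembly, had 1.44, 0.461, 14.8 and 14.5 CPM with both exposures and 19.5, 14.7, 7.12 and 6.13 CPM with stress alone, against 17.4, 8.63, 39.3 and 29.0 CPM with cypermethrin alone and 17.2, 42.7, 13.9 and 15.4 CPM with vehicle alone. Its lowest libraries were replicates 1 and 2 of both exposures, with 5 and 2 counts. Within the first and second library code Stxbp6 differed by -2.49 and -0.98, Stx19 by -2.36 and -1.81 and Unc13c by -2.44 and -3.79.

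A difference between the cypermethrin effects with and without restraint was tested as an interaction. No member passed (0 of 57 by edgeR, where 0% of all genes did), and DESeq2 also called 0 genes, with 819 at an unadjusted p under 0.05 beside 622 by edgeR. At this p stood 3 members (5.26%), 2 with positive and 1 with negative values, against 4.7% of all genes, 1.61% positive and 3.09% negative. Unc13c had 2.31, 2.54, 12.1 and 0.748 CPM with cypermethrin and stress against 0.476, 0.940, 0 and 0 CPM with vehicle and stress, and 12.9, 1.85, 2.13 and 4.20 CPM with cypermethrin alone against 8.42, 0, 20.9 and 10.6 CPM with vehicle alone. Its interaction was 4.49 ± 1.84 (log2, unadjusted p = 0.0216, adjusted p = 0.985), and 0.09 and 10.1 within the library codes. Vamp7, a SNARE of lysosomes and growing neurites, had an interaction of 1.50 ± 0.73 (unadjusted p = 0.0496, adjusted p = 0.985), or of 0.75 without cypermethrin stressed replicate 2, which had 123 CPM against 9.83 to 58.9 in the other 15 libraries. The interaction of Stx12 was -0.74 ± 0.35 (unadjusted p = 0.0460, adjusted p = 0.985), and -0.49 and -0.60 within the codes. It was -0.50 (unadjusted p = 0.145) without the library labelled vehicle stressed 1.

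**Figure D5:**
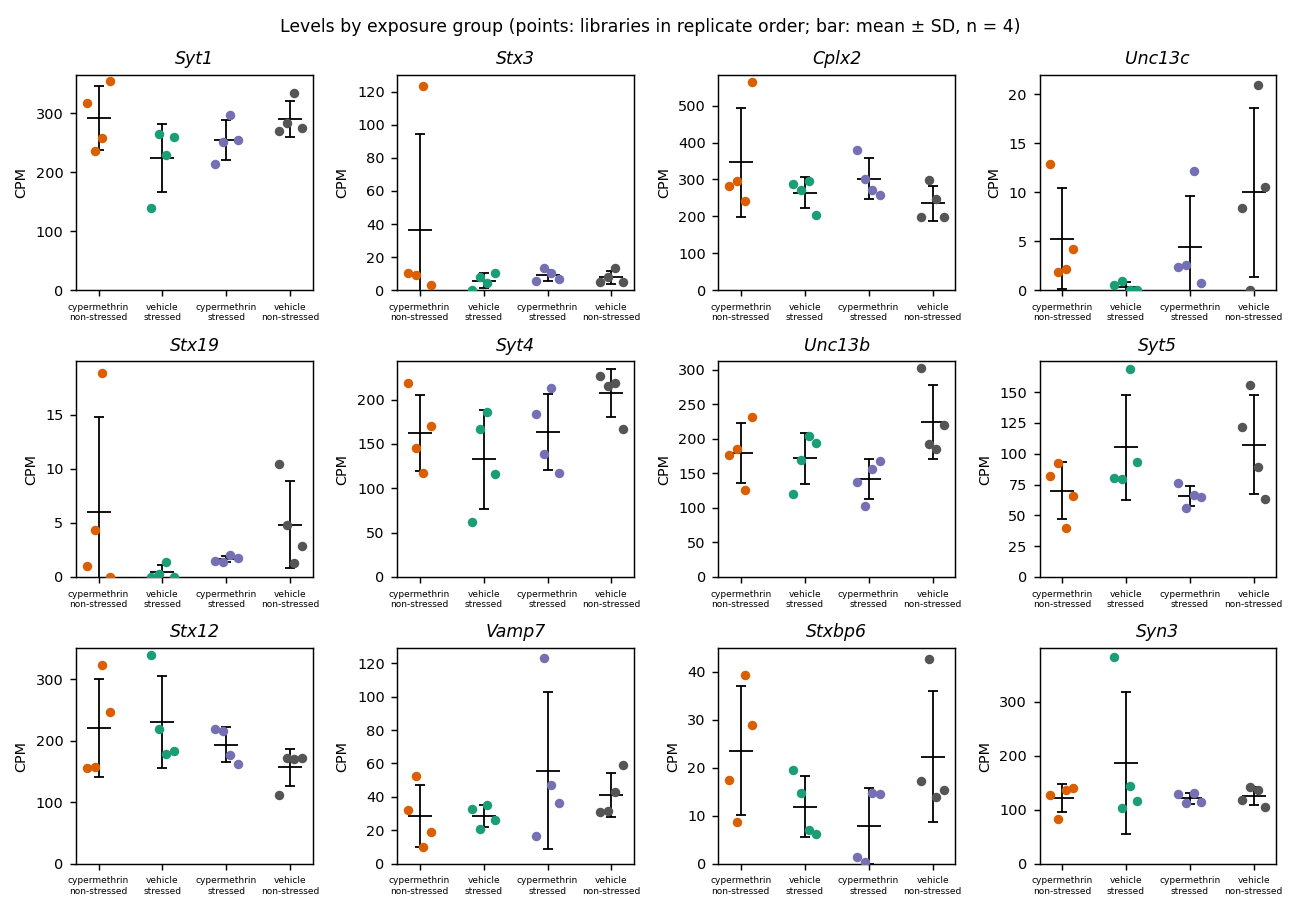
Levels in CPM of 12 members by exposure group, each panel on its own axis from 0. Points are libraries and bars are the mean ± SD (n = 4 per group). For Unc13b the group with both exposures lies at 102 to 168 CPM, below the 185 to 302 CPM of vehicle non-stressed, and for Stx3, Vamp7 and Syn3 a single library stands far above all others.

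Partner genes of the vesicle cycle and of other fusion steps, 78 in a list written with earlier results known, were counted in the same fits. Pclo, a scaffold of the active zone, had 914 ± 150 CPM, and Hspa8, a chaperone that also strips clathrin from vesicles, had 903 ± 213 CPM (SD, n = 16). Of the 76 tested, 0 were called by edgeR in any of the 6 comparisons. At an unadjusted p under 0.05 stood 2.63% of them with cypermethrin alone, 5.26% with stress alone, 0% with both exposures, 3.95% in the interaction, and 5.26% and 6.58% in the averages for cypermethrin and stress. Nsf, the ATPase that takes used SNARE bundles apart, had the smallest p of these with cypermethrin, -0.82 ± 0.30 alone (unadjusted p = 0.0111, adjusted p = 0.999) and -0.60 ± 0.21 averaged over stress (unadjusted p = 0.00909, adjusted p = 0.981). Under stress alone it was Slc17a7, a vesicular glutamate transporter, with 1.60 ± 0.57 (unadjusted p = 0.00968, adjusted p = 0.965), and averaged over cypermethrin it was Rimbp2, which links RIM proteins to calcium channels, with -1.11 ± 0.37 (unadjusted p = 0.00560, adjusted p = 0.960). Slc17a7 averaged 83.7 ± 95.6 CPM (SD, n = 16), an SD above its mean. The library labelled vehicle stressed 1 had the highest sum of the 8 glutamatergic neuron markers (7045 CPM). The part of that library in the Slc17a7 value was not tested, and partner fits without it are not given.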

How the data were processed

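The authors deposited read counts per gene for 16 laser-captured samples as whole numbers in a single table. STAR 2.5 and mm10 are named in the submitters' processing notes; how reads were counted, with which annotation and whether by strand, is not given in the sources used here. Members and gene lists were chosen with earlier results of these data known. From the counts, edgeR 4.0.16 (R 4.3.3) kept 13224 genes (filterByExpr by group, count minimum 10), scaled libraries by TMM and fitted a robust quasi-likelihood model of the 4 group means over 16 libraries, with a common dispersion of 0.344. Tests were two-sided, with Benjamini-Hochberg adjustment over all tested genes and calls at 0.05. Each standard error is the log2 difference divided by the root of its F value. CPM use the TMM-scaled totals of tested genes. Exon lengths and positions came from GENCODE vM21 on mm10, which held all 70 members. DESeq2 1.42.0, RLE scaling, no filter, a library code term, only the compared groups, and leave-one-out fits were the alternatives, and the fits were tested on simulated data. Members were named for the 3 smallest p in a comparison, for high levels, or from a set of release genes; others are described as chosen after their values were seen or belong to a count. Results of some members are not reported here. Pairs of related members and the within-code fits were also chosen after the data were seen. Depth differs by less than a factor of 2 between libraries, and the error between embryos includes capture and amplification.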

Additional observations from a re-analysis of the deposited data

Results flagged for a closer look

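In 108 groups of 4 libraries, 27 named members in 4 exposure groups, 11 had a library whose gap to the nearest other exceeded Dixon's 95% critical value. Chance flags about 1 in 20 groups by the design of this value, but these members were named in part for small p, to which single libraries contribute. Over all tested genes 9.88% of groups had such a library, near the 10.2% of the named members. Cypermethrin non-stressed replicate 4 was high for Cplx2 (566 CPM, others 241 to 296), Rims1 (119 CPM, others 30.0 to 40.4) and Vamp2 (298 CPM, others 99.6 to 132). Cypermethrin non-stressed replicate 3 was high for Stx3 (123 CPM, others 3.27 to 10.6). The library labelled vehicle stressed 1 was high for Cplx1 (170 CPM, others 80.1 to 94.3) and Syn3 (383 CPM, others 104 to 144), and vehicle stressed replicate 3 was high for Syt5 (168 CPM, others 79.5 to 93.6). In cypermethrin stressed replicate 3 Unc13c was high (12.1 CPM, others 0.748 to 2.54). Vehicle non-stressed replicate 1 was high for Cplx1 (163 CPM, others 80.7 to 94.5) and low for Stx12 (112 CPM, others 170 to 173), and replicate 2 of that group was high for Stxbp6 (42.7 CPM, others 13.9 to 17.2). No member had an interaction that passed the threshold.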

How the results depend on the processing

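In the 6 comparisons, 0 members were called with RLE scaling, without a filter on low counts, with the library code as a term, with DESeq2, within either code, or with any 1 library left out, and 0 in the 3 comparisons with vehicle non-stressed dams when only the groups compared were fitted. Over all genes these fits also called 0, apart from the following. For cypermethrin averaged over stress DESeq2 called 1 gene, and leaving out 1 library gave 0 to 1, the call coming without vehicle stressed replicate 3. Within the first library code, a split added after the values were known, edgeR called 2 genes for cypermethrin alone, 45 for stress alone, 13 for both exposures, 9 for the interaction, 14 for cypermethrin averaged and 7 for stress averaged. The log2 difference of Stx3 with cypermethrin alone was -0.0136 without cypermethrin non-stressed replicate 3 and up to 2.63 without another library. The other 334 of 335 refits of the 15 named differences kept their sign. At an unadjusted p under 0.05, dropping the filter raised the genes to 1028 from 491 for cypermethrin alone, to 1268 from 672 for stress alone and to 649 from 197 for both exposures, with more genes tested, and fitting only the groups compared gave 496 for both exposures. Taking the longest transcript, which divides the same CPM by another length, moved 19 of 65 levels per kb by more than 1 SD. The median standard error of a member (log2) was 0.40 for cypermethrin alone, 0.57 in the interaction and 0.28 in the averages, which limits the differences that could be resolved. No paired analysis was possible because replicate numbers follow accession order and pair no embryos.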
